A study of Mus musculus with 15 samples.

Results

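The protein components of the cytosolic ribosome were followed in mouse left ventricle, across mice carrying point mutations in Rbm20 and wild-type mice. Members were all symbols of the deposited count tables that are named as a large-subunit (Rpl), small-subunit (Rps), stalk (Rplp0, Rplp1, Rplp2) or Rpsa gene, with paralogs such as Rpl3l kept and pseudogenes and Rps6 kinases left out. The rule used names, not measured values, and took 86 of 40174 symbols, 53 of the large and 33 of the small subunit. Of these, 83 had enough counts to be tested. The rule leaves out ribosomal proteins with other names, such as Fau, Rack1 and Rpl36al, whose values are given separately.

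RBM20 is a splicing factor of striated muscle that controls titin and calcium-handling transcripts, and mutations in its arginine-serine-rich domain cause dilated cardiomyopathy in people and animals. Ribosomal protein mRNAs are abundant and start with a pyrimidine tract (the TOP element), through which mTOR and LARP1 control their translation as a group; their promoters often hold sites for ETS-family factors and YY1. Striated muscle is known for exchanging one component: RPL3, which lies near the peptidyl transferase centre, is partly replaced by its muscle-restricted paralog RPL3L in adult heart and skeletal muscle.

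The groups were homozygous S639G mice (genotype S639G -/-, called G-line HOM), heterozygous S639G mice (S639G +/-, G-line HET), homozygous S637A mice (S637A -/-, A-line HOM), heterozygous S637A mice (S637A +/-, A-line HET) and wild-type mice (WT), with 3 libraries labelled for each. All mice were C57BL/6 and 2 months old, and total RNA of the left ventricle was sequenced. Both Rbm20 changes are single-residue substitutions, which gene counts cannot show, so the labels could not be checked on the targeted gene. For all 40174 symbols, the columns of A-line HOM 2 and 3 equalled those of WT 2 and 3, and no label settles to which genotype the 2 libraries belong. They were used once, as WT, which left 13 libraries and 1 for A-line HOM. Since no label ties libraries to separate mice, p-values here reflect library-to-library spread, which may be technical. Total counts ran between 12959087 and 29436407 per library. Cardiomyocyte markers were high in every library, and G-line HOM 1, A-line HET 3 and WT 2 also held atrial transcripts (Myl7 at 10 CPM or more). Depth along transcript GC content differed between libraries. The fitted log2 deviation at 60% GC minus that at 40% GC was -0.46 in G-line HOM 3 and -0.22 in WT 1, against 0.40 in G-line HET 1.

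Promoter sequences are shown to set the letters at the start of members that fell beside those of members that rose. RefSeq (GRCm38.p6) gave a window of 250 bases before and 50 after the start for 64 of the 86 members. Windows of 24 bases centred on the start are printed for both members that fell in G-line HOM and had a window (Rpl3l, Rps2), for 2 that rose (Rpl13a, Rpl39) and, for contrast, for 2 with long tracts (Rpl35, Rpl7a); capitals mark the longest run of C or T.
Rpl3l (chr17:24727814-24727837, plus strand): tgTTCTagctctgtcatttgacct
Rps2 (chr17:24720051-24720074, plus strand): cagtcgagatctcgcgCTTCTTgg
Rpl13a (chr7:45128734-45128757, minus strand): accctgcgacaagaCCTCCTCCTT
Rpl39 (chrX:37085211-37085234, minus strand): aagctccgcctctagcgaCTTCTT
Rpl35 (chr2:39005120-39005143, minus strand): ccccgCCCTTTCCTCTTTCTCTCg
Rpl7a (chr2:26910795-26910818, plus strand): CCCTCTTCTTTCTTTCTCCagcag
A run of 7 or more C or T lay in this 24-base window in 28 of 64 members (43.8%) and in 14.7% of 27025 RefSeq promoters. It was present in 3 of the 12 members with a window that rose in G-line HOM against WT, in neither of the 2 that fell, and in 23 of the 47 tested members that did neither.

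Upstream of the start, 4 motifs were searched on both strands of the 300-base windows: CTTTC, a piece of the pyrimidine tract; CCGGAAG, the core recognised by ETS factors; AAGATGGC, a YY1 core; and CATTCCT, the muscle TEAD element. None of these strings contains another. The 250 bases before the start are printed for both members that fell and for 2 that rose, with matches to any of the 4 in capitals.
Rpl3l (chr17:24727576-24727825, plus strand): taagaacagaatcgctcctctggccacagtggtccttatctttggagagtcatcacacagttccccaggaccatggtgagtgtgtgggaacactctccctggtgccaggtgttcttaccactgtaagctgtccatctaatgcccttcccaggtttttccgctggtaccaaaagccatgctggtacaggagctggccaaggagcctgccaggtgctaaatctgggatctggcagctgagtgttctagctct
Rps2 (chr17:24719813-24720062, plus strand): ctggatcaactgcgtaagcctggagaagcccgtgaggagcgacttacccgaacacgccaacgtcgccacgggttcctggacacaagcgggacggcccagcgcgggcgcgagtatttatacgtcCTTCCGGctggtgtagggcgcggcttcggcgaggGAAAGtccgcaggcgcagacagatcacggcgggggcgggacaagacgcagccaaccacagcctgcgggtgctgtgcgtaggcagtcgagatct
Rpl39 (chrX:37085223-37085472, minus strand): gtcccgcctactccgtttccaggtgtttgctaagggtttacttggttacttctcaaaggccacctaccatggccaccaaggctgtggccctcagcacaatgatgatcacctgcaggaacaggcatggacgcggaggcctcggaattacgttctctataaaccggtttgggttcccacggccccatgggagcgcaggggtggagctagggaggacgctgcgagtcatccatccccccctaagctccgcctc
Rpl41 (chr10:128549169-128549418, minus strand): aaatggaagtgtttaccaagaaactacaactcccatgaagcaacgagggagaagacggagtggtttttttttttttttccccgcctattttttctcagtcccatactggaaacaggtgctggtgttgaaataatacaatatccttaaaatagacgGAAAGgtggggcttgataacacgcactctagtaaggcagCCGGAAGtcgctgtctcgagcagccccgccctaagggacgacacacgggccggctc
CTTTC was found on either strand in 50 of 64 members (78.1%) and in 57.2% of all promoters of that length. On the gene's strand alone it was found in 38 of 64 (59.4%), against 34.5%. CCGGAAG was found in 25 of 64 (39.1%), against 9.11% of all promoters, and AAGATGGC in 6 of 64 (9.38%), against 2.87%. CATTCCT was found in 2 of 64 (3.12%), against 5.30%. The printed stretches of Rpl3l, which fell, and Rpl39, which rose, held none of the 4. Those of Rps2, which fell, and Rpl41, which rose, each held CTTTC and CCGGAAG once, counting both strands. Both CTTTC matches read GAAAG on the gene's strand, and the CCGGAAG match of Rps2 read CTTCCGG. In the whole window of 300 bases, Rpl39 held CTTTC and CCGGAAG. Rpl3l and 9 other members held none there (10 of 64, 15.6%), beside 35.7% of all promoters. These are letter matches, not measured sites.

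In the G-line HOM ventricles the Rpl3 pair moved in opposite directions: Rpl3, the general paralog, rose 2.34-fold and Rpl3l fell to 0.129 of its WT level. Beyond this pair, 15 other members rose by 1.21 to 1.43-fold and 2 fell. By edgeR's quasi-likelihood test with Benjamini-Hochberg adjustment over 17588 genes (adjusted p under 0.05), 16 of 83 members were higher (19.3%) and 3 lower (3.61%), beside 13.1% of all genes tested higher and 13.3% lower. Every G-line HOM library was above every WT library for 34 members, beside 20.6% of all genes, and below for 3, beside 21.1%. The median log2 fold change of the 83 was 0.15 (65 of them positive), and that of all genes was 0.01.

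Rpl3 had 356, 358 and 311 CPM (the rate of counts per sequenced library after TMM normalisation) in G-line HOM, 170, 150 and 185 in G-line HET, 241 in the A-line HOM library, 155, 223 and 246 in A-line HET, and 123, 176 and 139 in WT. The 3 G-line HOM libraries were above all others. The A-line HOM library was above every WT library, while G-line HET and A-line HET each overlapped WT. The log2 fold change was 1.23 ± 0.16 (SE) in G-line HOM against WT (adjusted p = 0.000166).

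Rpl3l had 7.69, 10.3 and 22.8 CPM in G-line HOM, 87.0, 88.3 and 91.5 in G-line HET, 42.6 in the A-line HOM library, 79.3, 39.2 and 39.6 in A-line HET, and 113, 88.9 and 112 in WT. All G-line HOM libraries were below all others, and G-line HOM 3 was the highest of them. The A-line HOM library and all A-line HET libraries were below WT, and A-line HET 1 stood apart from the other two. The G-line HOM values rest on 246, 218 and 485 counts. The log2 fold change against WT was -2.96 ± 0.42 (adjusted p = 0.000956). Both calls of the pair held under all 28 alternative settings, with log2 fold changes of 1.12 to 1.48 for Rpl3 and -3.55 to -2.66 for Rpl3l.

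**Figure D1:**
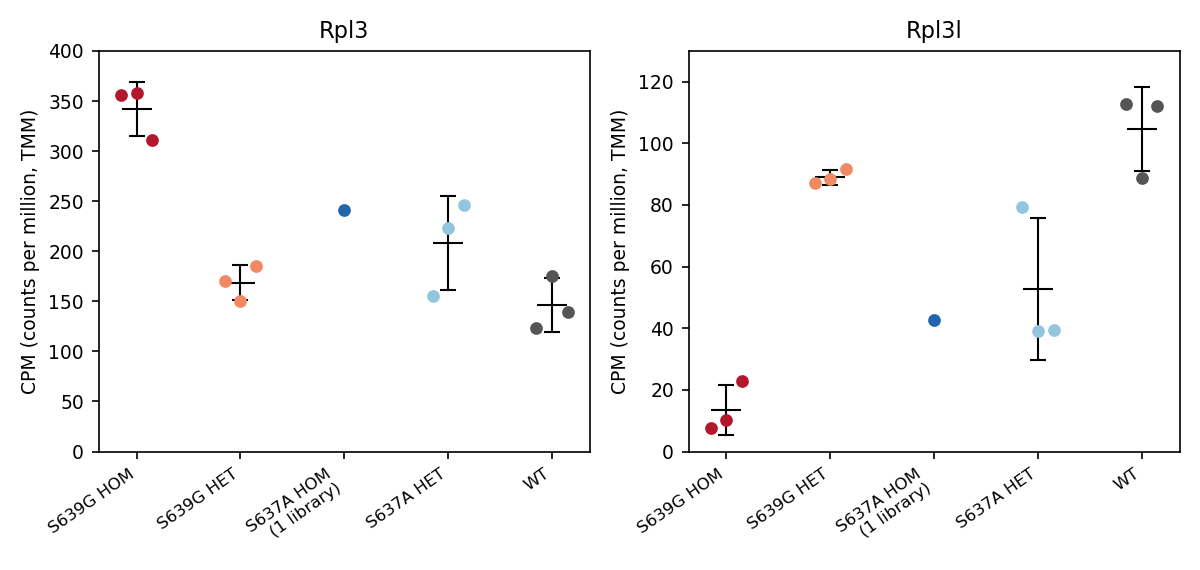
CPM of Rpl3 (left) and Rpl3l (right) in each library, by group; points are libraries, bars the mean ± SD, and the A-line HOM group has 1 library. G-line HOM libraries sit at 311 to 358 CPM for Rpl3 and at 7.69 to 22.8 CPM for Rpl3l, outside the range of all other libraries.

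Per kilobase of transcript, Rpl3l made up 2.08%, 2.74% and 6.70% of the summed Rpl3 and Rpl3l level in G-line HOM and 33.5%, 36.6% and 32.7% in G-line HET. It made up 14.8% in the A-line HOM library, 33.4%, 14.7% and 13.7% in A-line HET, and 47.4%, 33.2% and 44.2% in WT. The order was thus WT and G-line HET, which overlapped, then A-line HET, which spanned the gap, and G-line HOM, which lay below every other library. The log2 ratio of Rpl3l to Rpl3 was -4.81 ± 0.92 in G-line HOM and -0.47 ± 0.45 in WT (SD, n = 3 each), a difference of -4.34. A two-sided exact permutation test gave p = 0.1, the smallest that 3 against 3 libraries allow (0.5 after adjustment over 15 ratio tests). The ratio needs no scaling between libraries.

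In 2 other pairs neither paralog passed the test. Rpl22l1, a paralog of Rpl22 that can replace it, had a log2 fold change of 0.07 ± 0.15 in G-line HOM against WT (adjusted p = 0.781), and Rpl22 one of 0.16 ± 0.08 (adjusted p = 0.182). The log2 ratio of Rpl22l1 to Rpl22 was -2.83 ± 0.09 in G-line HOM and -2.74 ± 0.07 in WT (SD, n = 3 each), and the groups overlapped. Rps27l, the p53-inducible paralog of Rps27, had a log2 fold change of 0.21 ± 0.12 (adjusted p = 0.201) and Rps27 one of 0.15 ± 0.11 (adjusted p = 0.358). The log2 ratio of Rps27l to Rps27 was -2.08 ± 0.04 in G-line HOM and -2.14 ± 0.01 in WT, a difference of 0.06 with no overlap, for which the exact permutation test again gave its smallest p of 0.1. The ratios of Rps4l to Rps4x and of Rpl7l1 to Rpl7 were added after seeing the data and have no test. The log2 ratio of Rps4l to Rps4x was -6.90 ± 0.06 in G-line HOM and -5.44 ± 0.21 in WT (SD, n = 3 each), a difference of -1.46 with no overlap. That of Rpl7l1 to Rpl7 was -3.26 ± 0.07 in G-line HOM, -2.85 ± 0.07 in G-line HET and -2.99 ± 0.09 in WT, with G-line HOM below both. Rpl7l1, which acts in large-subunit assembly, had a log2 fold change of 0.04 ± 0.09 against WT (adjusted p = 0.785), while Rpl7 rose. The testis-type paralogs were close to absent: Rpl10l had 0 counts in every library, which allows up to 3 counts in each, and Rpl39l had at most 7.

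Among large-subunit members without a paralog exchange, Rpl39, a small basic protein at the exit tunnel, had the next largest rise. It had 74.3, 77.4 and 88.5 CPM in G-line HOM and 58.5, 58.4 and 51.3 in WT, with no overlap (log2 fold change 0.51 ± 0.11, adjusted p = 0.00236). Rpl10, which joins the large subunit late and is needed for subunit joining, had 301, 299 and 273 CPM in G-line HOM and 201, 242 and 202 in WT (log2 fold change 0.44 ± 0.10, adjusted p = 0.00639). Its groups did not overlap either. Rpl13a, Rpl37, Rpl36a and Rpl41 rose by 0.38 to 0.39 on the log2 scale, and Rpl12, Rpl7 and Rpl21 by 0.30 to 0.31.

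Rpl13a, which can also leave the ribosome to silence inflammatory mRNAs in human myeloid cells, had nearly equal values in the 3 G-line HOM libraries. It had 170, 169 and 171 CPM in G-line HOM, 128, 128 and 148 in G-line HET, 165 in the A-line HOM library, 137, 165 and 155 in A-line HET, and 125, 134 and 130 in WT. G-line HOM was above every other library, and A-line HET was above WT without overlap. Rpl36a, an X-linked gene, had 63.2, 65.7 and 71.9 CPM in G-line HOM, 47.1, 54.7 and 53.4 CPM in G-line HET, against 49.9, 53.4 and 51.5 CPM in WT. G-line HOM lay above both of these groups, which overlapped each other.

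In the small subunit, Rps3a1, Rps12, Rps24, Rps4x, Rps3 and Rps20 rose by 0.27 to 0.42. Rps3a1, a protein of the platform of the small subunit, had 347, 377 and 420 CPM in G-line HOM, 264, 285 and 312 in G-line HET, 362 in the A-line HOM library, 276, 354 and 356 in A-line HET, and 282, 301 and 271 in WT. G-line HOM was above G-line HET and WT, while A-line HET spanned the range between them. Rps4x had 329, 341 and 378 CPM in G-line HOM, 270, 291 and 301 CPM in G-line HET, 331 CPM in the A-line HOM library and 295, 315 and 322 CPM in A-line HET, against 281, 297 and 272 CPM in WT. G-line HOM lay above G-line HET, A-line HET and WT, and the A-line HOM library lay within the G-line HOM range. Rps3, which lines the mRNA entry channel, Rps24, which is mutated in some families with Diamond-Blackfan anaemia, Rps12 and Rps20 each had all G-line HOM libraries above all WT libraries.

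The calls differed in how far they depended on single libraries. Leaving out each of the 13 libraries in turn gave 7 to 16 higher members. There were 9 without G-line HOM 2, 10 without G-line HOM 3, 7 without WT 1 and 7 without WT 3. Rpl3, Rpl39, Rpl10, Rpl13a, Rpl37 and Rpl36a passed in each of these fits, as did the 3 that fell. Rpl41 did not pass without WT 1 (adjusted p = 0.0559) and Rps3a1 not without WT 3 (0.0572). Rps4x was lost without G-line HOM 3 (0.0605), WT 1 (0.0582) or WT 3 (0.0791). Rpl7, Rpl12, Rpl21, Rps3, Rps12, Rps20 and Rps24 each lost the call without G-line HOM 2 (adjusted p 0.0598 to 0.110), WT 1 (0.0646 to 0.178) or WT 3 (0.0531 to 0.141). One or more of these 7 was also lost without G-line HOM 1 or 3, G-line HET 1, 2 or 3, A-line HOM 1, A-line HET 3 or WT 2 (0.0501 to 0.175). The use of the 2 shared libraries also moved the count: with them left out 4 members were higher, and with them named A-line HOM only Rpl3 was. Without G-line HOM 3 and WT 1, both low in GC-rich transcripts, 5 members were higher.

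**Figure D2:**
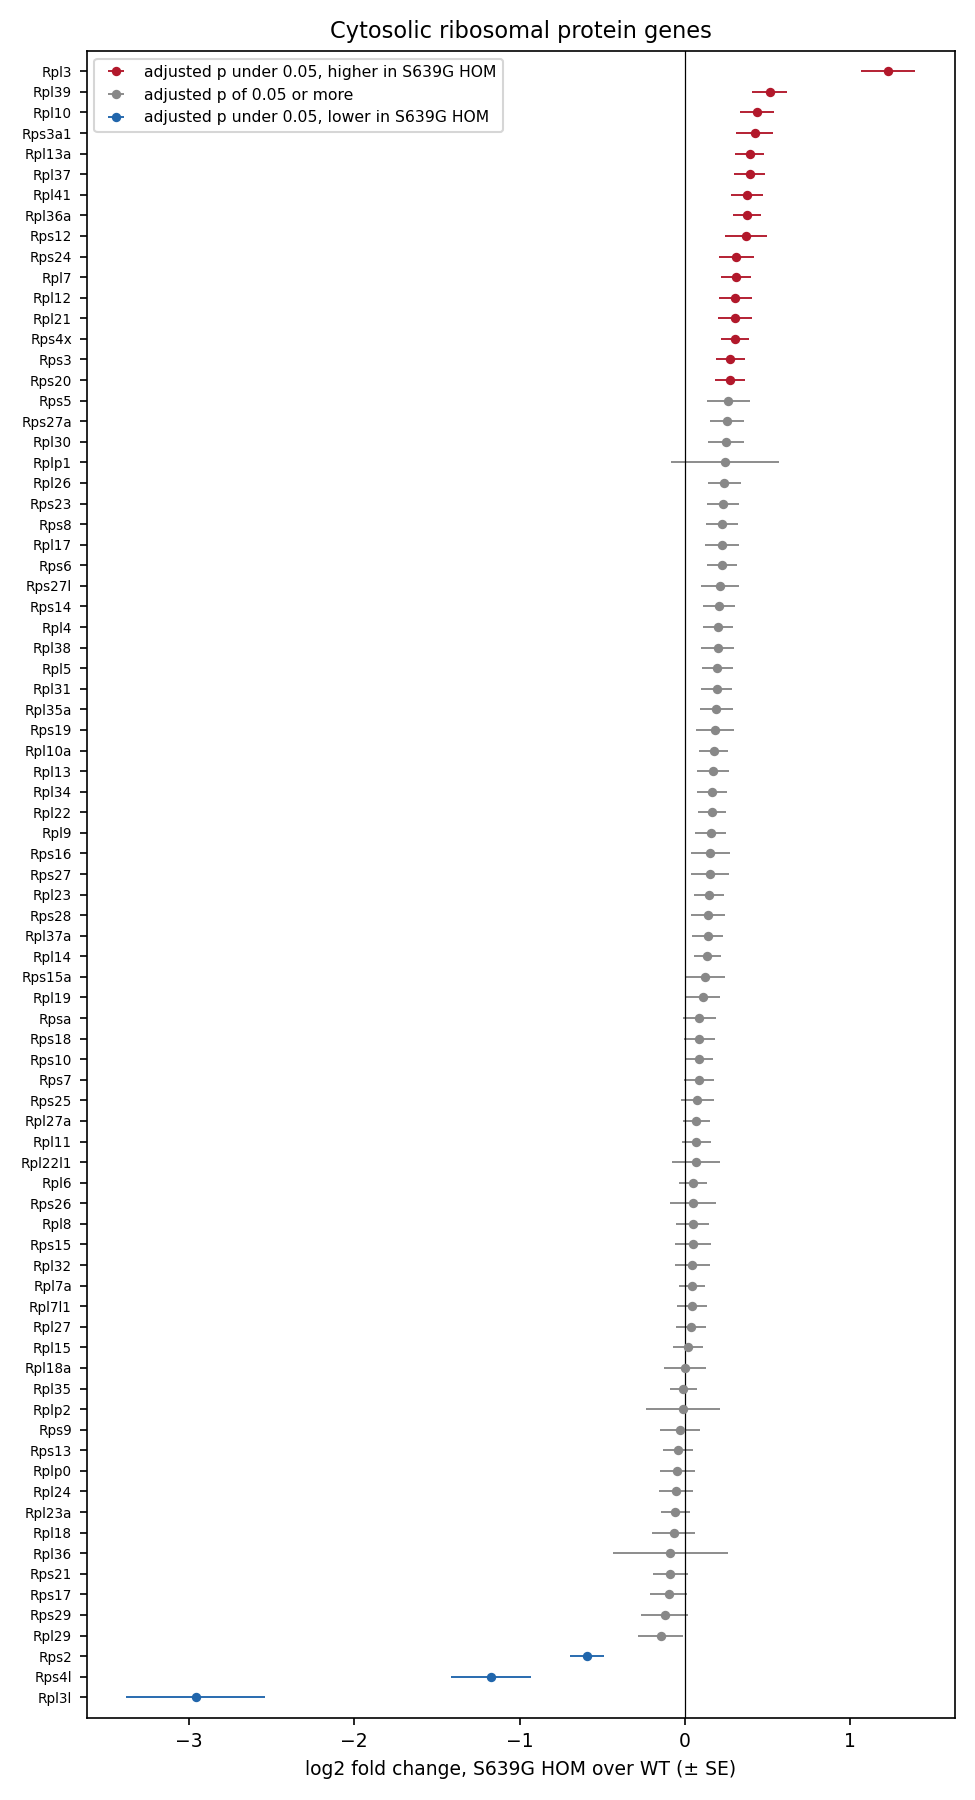
Log2 fold change ± SE in G-line HOM over WT of the 80 tested members with at least 100 counts in some library, sorted by value; red marks the 16 higher and blue the 3 lower at an adjusted p under 0.05. Rpl3 at the top and Rpl3l at the bottom stand apart from a narrow band of small positive values.

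Of the 3 members that fell, Rps2, a small-subunit protein near the mRNA entry channel, is the one with a high level. Its CPM was 247, 248 and 264 in G-line HOM, 339, 331 and 315 in G-line HET, 295 in the A-line HOM library, 349, 282 and 258 in A-line HET, and 368, 366 and 409 in WT. Every mutant library was below every WT library, and G-line HOM was also below G-line HET. The log2 fold change of G-line HOM against WT was -0.59 ± 0.11 (adjusted p = 0.000897), and it missed the threshold only with the shared libraries named A-line HOM (0.0815). Rps4l, which RefSeq lists as a transcribed pseudogene related to Rps4x, had 2.72, 2.97 and 3.05 CPM in G-line HOM and 7.51, 6.77 and 5.42 in WT (log2 fold change -1.17 ± 0.24, adjusted p = 0.00248). Its groups did not overlap, while Rps4x, the X-linked gene, rose. How reads shared with near-identical copies were counted is not given in the sources used here, so the split between such copies is uncertain.

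**Figure D3:**
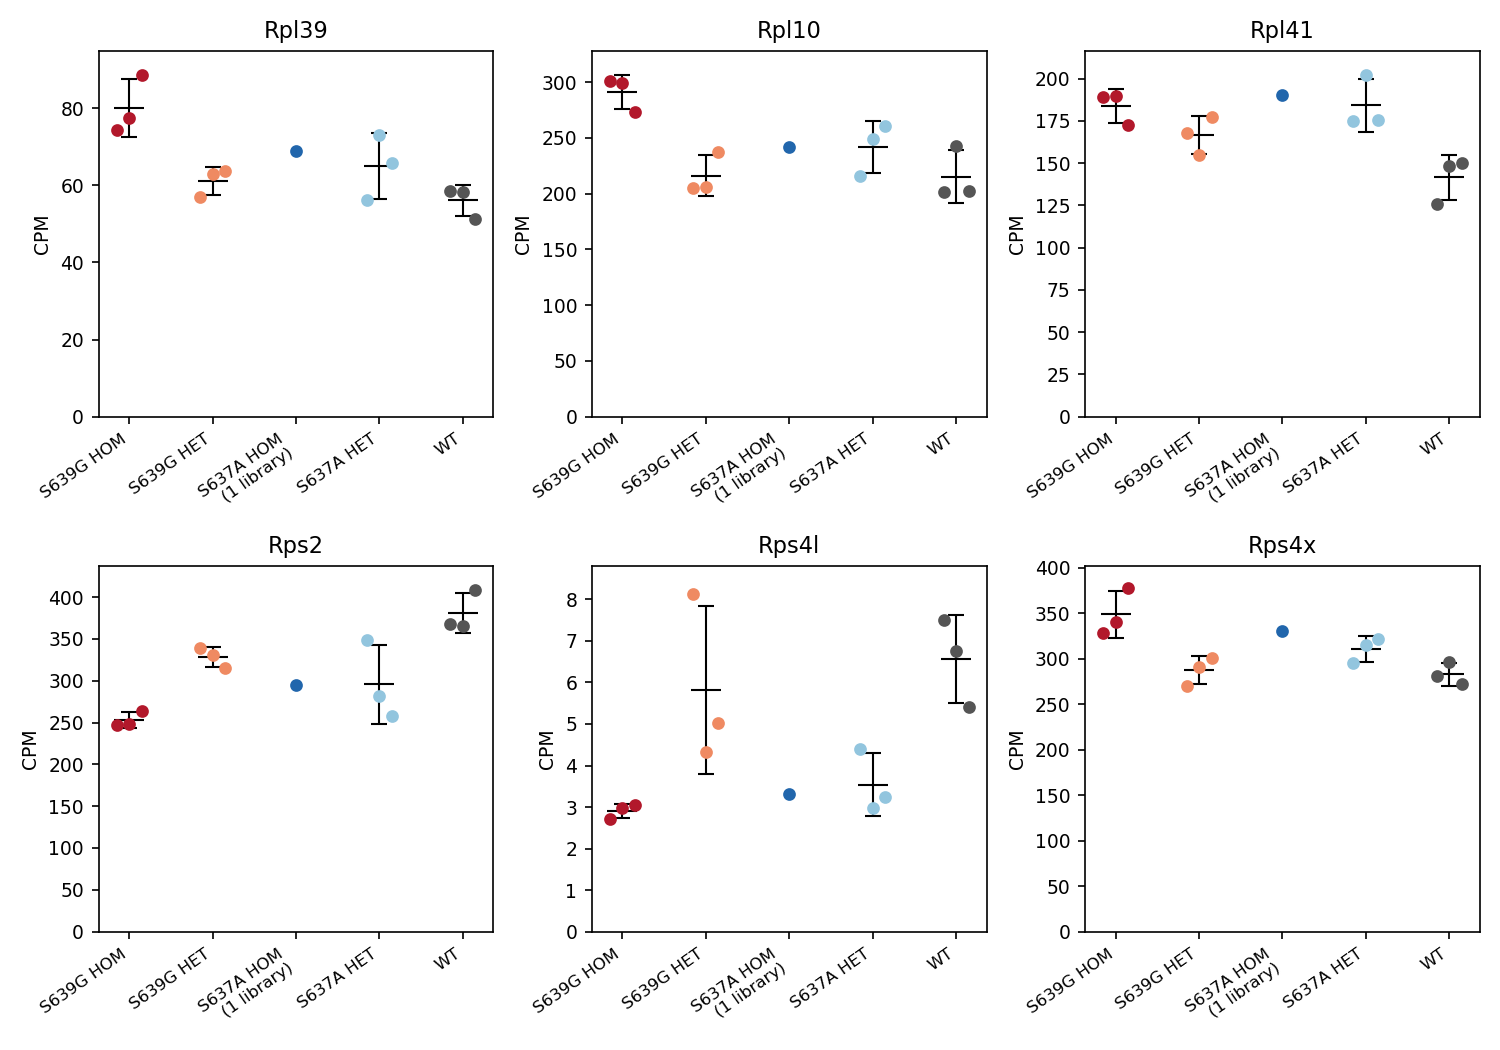
CPM of Rpl39, Rpl10 and Rpl41 (top) and Rps2, Rps4l and Rps4x (bottom) in each library, by group; points are libraries and bars the mean ± SD. Rps2 in all mutant libraries, from 247 to 349 CPM, lies below the WT libraries at 366 to 409 CPM.

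The stalk proteins and the 5S particle did not pass the test against WT. Rplp0, the anchor of the stalk that binds elongation factors, had a log2 fold change of -0.05 ± 0.11 in G-line HOM. Its partners Rplp1 and Rplp2 had values of 0.24 ± 0.33 and -0.01 ± 0.23. They varied within groups: Rplp1 had 106, 83.2 and 51.2 CPM in G-line HOM and 49.7, 83.0 and 70.7 in WT, and its lowest libraries were WT 1 and G-line HOM 3, which were also low in GC-rich transcripts. Rpl5 and Rpl11, which bind 5S rRNA and restrain MDM2, had log2 fold changes of 0.20 ± 0.09 (adjusted p = 0.145) and 0.07 ± 0.09 (0.615). Rps6, the S6 kinase substrate, had 0.22 ± 0.09 (0.0811), Rpsa 0.09 ± 0.10 (0.556) and the ubiquitin fusion Rps27a 0.26 ± 0.10 (0.0824).

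Transcript GC content moved with the size of the change. Across the 83 members, which share the same libraries, the Spearman correlation of GC content with the G-line HOM against WT log2 fold change was -0.31, and across 15266 genes with a GC value it was -0.04. The median log2 fold change was 0.09 in the GC-richer members and 0.19 in the others, split at 51.8% GC. Within libraries, the correlation of the members' deviations with GC ran from -0.62 in G-line HOM 3 to 0.53 in G-line HET 1, with 0.0068 in G-line HOM 1 and -0.33 in G-line HOM 2. With GC content as an offset, 15 members were higher and 3 lower in G-line HOM, beside 16 and 3 without it.

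Against G-line HET, G-line HOM ventricles again had more Rpl3 and less Rpl3l. Rpl3 differed by 1.02 ± 0.16 on the log2 scale (adjusted p = 0.00267) and Rpl3l by -2.72 ± 0.42 (adjusted p = 0.00491), and both held under all 28 alternative settings. In all, 13 of 83 members were higher, beside 6.22% of all genes, and 3 lower, beside 8.42%. Across the 83 members the Spearman correlation of this log2 fold change with transcript GC content was -0.50, and across 15266 genes it was -0.24. The median log2 fold change was 0.04 in the GC-richer members and 0.21 in the others. Rpl10, Rps3a1, Rpl39, Rpl36a, Rpl13a, Rpl37, Rpl7, Rpl12, Rps20 and Rps4x were higher as they were against WT, and these comparisons share the G-line HOM libraries. Rpl5 (0.35 ± 0.09, adjusted p = 0.0239) and Rps6 (0.30 ± 0.09, adjusted p = 0.0375) passed here and not against WT; that difference was not tested. Rps2 (-0.38 ± 0.10, adjusted p = 0.0284) and Rps4l (0.499 of the G-line HET level, adjusted p = 0.0151) were lower. Every G-line HOM library was above every G-line HET library for 23 members, beside 17.9% of all genes, and below for 5, beside 17.1%. Apart from the Rpl3 pair the set depended on single libraries: 2 members were higher without G-line HOM 2, 4 without G-line HOM 3, 1 without G-line HET 1, 2 without G-line HET 2, 8 without G-line HET 3 and 8 without WT 3. The lower members fell to 1 without G-line HOM 1, G-line HOM 2 or G-line HET 1.

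In G-line HET against WT no member passed edgeR's test in either direction, beside 3.97% of all genes higher and 3.54% lower. DESeq2 also called none, and 2 of 83 had an unadjusted p under 0.05. The median log2 fold change of the members was 0.01. Rpl3 differed by 0.21 ± 0.16 (adjusted p = 0.504) and Rpl3l by -0.23 ± 0.38 (adjusted p = 0.785).

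The A-line HOM library, whose fit assumes that it varies like the libraries of the other groups, gave no call among the members by edgeR, beside 2.82% of all genes higher and 1.86% lower. DESeq2 called 1 (Rpl3, adjusted p = 0.0386), and 13 had an unadjusted p under 0.05. The log2 difference from WT was 0.72 ± 0.22 for Rpl3 (edgeR adjusted p = 0.0851) and -1.29 ± 0.59 for Rpl3l (0.284), and 73 of 83 members had a positive value with a median of 0.15. Rpl3 passed without A-line HET 1 (0.0207) or without WT 2 (0.0408). This difference has no replicate check within A-line HOM.

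In A-line HET against WT, Rpl41, the shortest ribosomal protein, was higher, and Rps2 and Rps4l were lower, beside 3.99% of all genes higher and 3.97% lower. Rpl41 had 175, 202 and 175 CPM in A-line HET and 126, 148 and 150 in WT, with no overlap (log2 fold change 0.38 ± 0.10, adjusted p = 0.0260). Rps2 differed by -0.36 ± 0.10 (adjusted p = 0.0474) and Rps4l by -0.90 ± 0.25 (adjusted p = 0.0364). These 3 calls were lost in 9 (Rpl41), 20 (Rps2) and 12 (Rps4l) of the 28 alternative settings. Without A-line HET 1, whose Rpl3 and Rpl3l values lay next to WT, 6 members were higher, with Rpl3 among them (adjusted p = 0.00528). The count of higher members was 0 without A-line HET 2, WT 1 or WT 3 and 2 without WT 2, and that of lower members was 0 without G-line HOM 2, A-line HET 2 or 3, or any WT library. It was 1 without a G-line HET library or A-line HOM 1. With all 13 libraries Rpl3 differed by 0.51 ± 0.16 (adjusted p = 0.0755) and Rpl3l by -0.99 ± 0.39 (adjusted p = 0.174).

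Between the heterozygotes, A-line HET against G-line HET, edgeR called none of the 83 members, beside 0.0114% of all genes higher and 0.0171% lower. DESeq2 called none either, and 2 had an unadjusted p under 0.05. Rpl3l differed by -0.76 ± 0.39 (adjusted p = 0.431), with all A-line HET libraries below G-line HET; this held for 2 members in all, beside 8.06% of all genes.

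As a share of all counts, the members made up 1.35%, 1.34% and 1.36% in G-line HOM, 1.07%, 1.10% and 1.20% in G-line HET, 1.28% in the A-line HOM library, 1.12%, 1.36% and 1.32% in A-line HET, and 0.971%, 1.20% and 1.10% in WT. G-line HOM lay above WT and G-line HET without overlap. The share taken by mitochondrial ribosomal RNA (mt-Rnr1, mt-Rnr2) and 5S ribosomal RNA moved the other way. It was between 10.8% and 13.5% in G-line HOM against 20.2% to 23.4% in WT. No mitochondrial mRNA was among these rows. With those removed from the total, the member share was between 1.51% and 1.58% in G-line HOM against 1.27% to 1.502% in WT, closer together but still without overlap. On this measure A-line HET, at 1.35% to 1.61%, overlapped both G-line HOM and WT. The A-line HOM library had 1.51%, and G-line HET had 1.28% to 1.42%. The 95% exact binomial interval of the single A-line HOM value, 1.277% to 1.288%, covers counting error only.

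**Figure D4:**
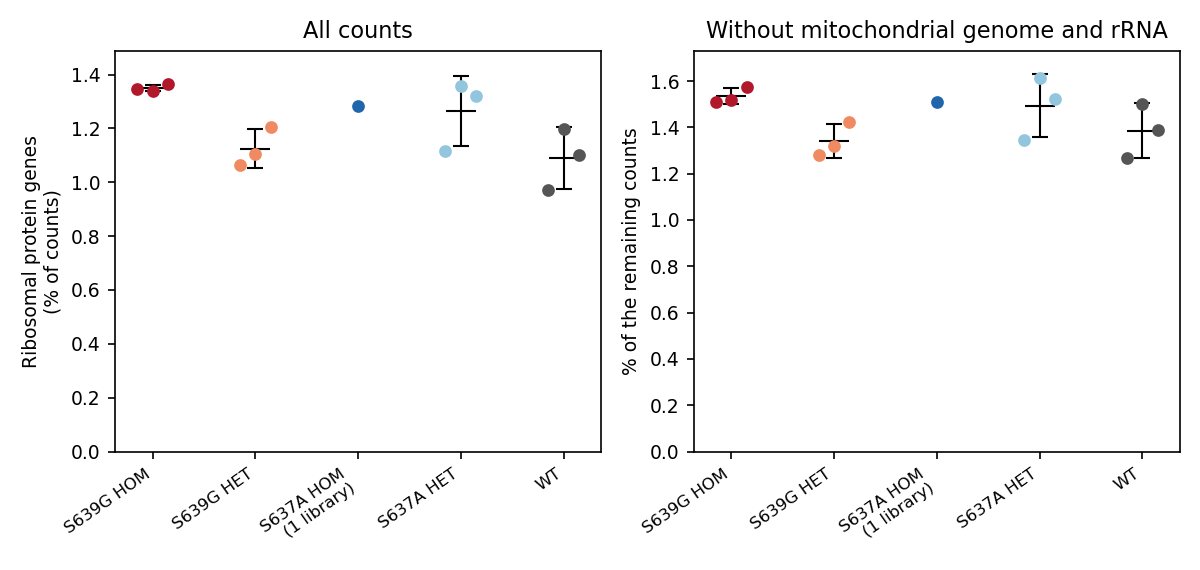
Share of counts in the 86 ribosomal protein genes per library, of all counts (left) and of counts outside mitochondrial and 5S ribosomal RNA (right). The title of the right panel names the mitochondrial genome, of which only the ribosomal RNA was removed. Bars are the mean ± SD. G-line HOM libraries sit at 1.34 to 1.36% of all counts against 0.971 to 1.20% in WT, and the gap narrows in the right panel.

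Large-subunit counts exceeded small-subunit counts 1.37 to 1.39 times in G-line HOM, 1.32 to 1.36 times in G-line HET, 1.33 times in the A-line HOM library, 1.32 to 1.33 times in A-line HET and 1.33 to 1.35 times in WT. The median log2 fold change in G-line HOM against WT was 0.15 in the 50 tested large-subunit members and 0.14 in the 33 small-subunit ones. Annotated ribosomal protein pseudogenes held at most 0.0746% of the members' counts, and none of 7 tested passed in any comparison. The core gene Rpl28 was nearly without counts, with 0 to 2 per library, and was not tested. The paralogs or pseudogenes Rpl32l (2 to 19 counts) and Rpl6l (4 to 23) were also low.

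Other components of the translation system gave a mixed picture in G-line HOM against WT. Among ribosomal proteins outside the naming rule, Fau had a log2 fold change of 0.19 ± 0.14 (adjusted p = 0.376), Rpl36al one of 0.22 ± 0.09 (0.102) and Rack1, the scaffold on the small subunit, one of 0.26 ± 0.09 (0.0349). Of 21 other TOP mRNAs, 8 rose and none fell, with a median of 0.22. Among them were Eif3h, an initiation factor subunit (0.78 ± 0.09, adjusted p = 5.25e-05), and Npm1, a nucleolar chaperone (0.57 ± 0.10, adjusted p = 0.000912). Translation factors had 8 higher and 5 lower of 48, with the muscle elongation factor Eef1a2 at -0.55 ± 0.11 (adjusted p = 0.00221). This list shares Eef1a1, Eef1b2, Eef1d, Eef1g, Eef2, Eif3e, Eif3f, Eif3h and Eif4b with the TOP list, so their counts are not separate. All these lists are to be read against the 13.1% of all genes higher and 13.3% lower in this comparison.

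Ribosome assembly genes, a list that also holds Npm1, rose in 13 of 71 cases and fell in 1, with a median of 0.07. Rrp12 (0.77 ± 0.14, adjusted p = 0.00088) and Sbds (0.55 ± 0.10, adjusted p = 0.00109) were among those that rose. Of 15 RNA polymerase I genes none rose, beside 13.1% of all genes, and 2 fell, the same share as the 13.3% of all genes: Rrn3 (-0.50 ± 0.10, adjusted p = 0.00206) and Polr1a (-0.43 ± 0.09, adjusted p = 0.00318). Host genes of small nucleolar RNAs rose in 6 of 15 cases, with a median of 0.73. Gas5, whose introns encode snoRNAs and whose exons begin with a TOP tract, had 39.8, 42.8 and 37.2 CPM in G-line HOM and 19.4, 20.8 and 19.3 in WT (log2 fold change 1.01 ± 0.12, adjusted p = 5.25e-05). Its groups did not overlap.

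Of 32 mTOR, MYC and TOP regulators 3 were higher and 4 lower, near the 13.1% and 13.3% of all genes. Tsc2, which restrains mTORC1, differed by -0.56 ± 0.10 (adjusted p = 0.000892) and Eif4ebp1 by 0.40 ± 0.09 (0.0058). Rptor was lower, at 33.8 to 37.6 CPM in G-line HOM against 42.6 to 46.6 CPM in WT, without overlap. Myc, at 2.63 to 3.58 CPM in G-line HOM against 0.858 to 1.51 CPM in WT, differed by 1.43 ± 0.38 (adjusted p = 0.0127). Of 19 genes of ribosome quality control and stress 6 rose and 1 fell. Atf4, the effector of the integrated stress response, had 102, 104 and 97.8 CPM in G-line HOM and 39.2, 40.1 and 42.7 in WT (log2 fold change 1.32 ± 0.11, adjusted p = 4.08e-06).

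Proteins of the mitochondrial ribosome, a separate particle that translates the mitochondrial genome, went the other way. Of 78 tested, 34 fell and 1 rose in G-line HOM against WT, with a median of -0.32, beside 13.3% of all genes lower and 13.1% higher. Against G-line HET 34 fell and 1 rose, with a median of -0.39, beside 8.42% lower and 6.22% higher. Mrpl55 had 19.1 to 22.9 CPM in G-line HOM, 34.9 to 42.4 in G-line HET and 33.8 to 41.4 in WT. G-line HOM lay below both without overlap, with a log2 fold change of -0.86 ± 0.11 against WT (adjusted p = 0.000104). In G-line HET against WT the mitochondrial list had 3 higher, a share near the 3.97% of all genes, and none lower, beside 3.54% (median 0.10). It had none called in A-line HOM, beside 2.82% of all genes higher and 1.86% lower (median -0.11), and 1 lower in A-line HET, beside 3.97% (median -0.06).

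**Figure D5:**
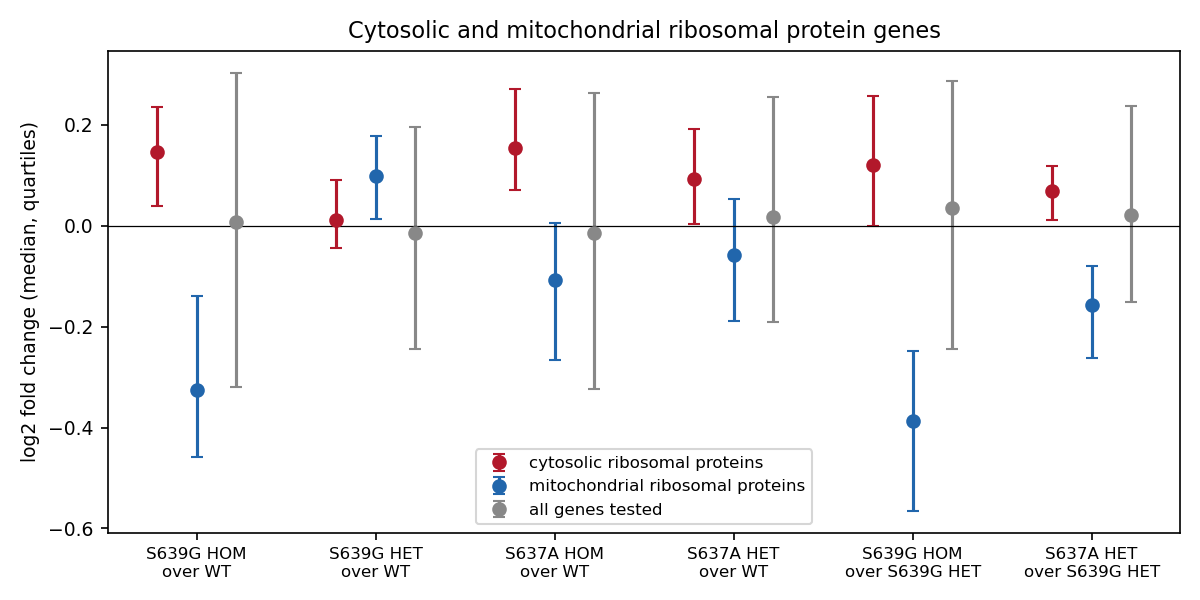
Median log2 fold change with quartiles for the 83 tested cytosolic members, 78 mitochondrial ribosomal protein genes and 17588 genes tested, in each comparison. In G-line HOM over WT the medians are 0.15, -0.32 and 0.01.

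Cell type markers also moved in G-line HOM against WT. Counts of called markers are to be read beside the 13.1% of all genes higher and 13.3% lower. Of 8 fibroblast markers 5 rose in G-line HOM against WT, and their summed level was 2520 to 3498 CPM in G-line HOM and 980 to 1724 CPM in WT. Of 10 cardiomyocyte markers 6 fell and 1 rose, with summed levels of 45610 to 50069 CPM in G-line HOM and 55546 to 61807 CPM in WT. Smooth muscle and pericyte markers had 3 lower and none higher of 7 tested, with summed levels of 872 to 1200 CPM in G-line HOM and 1655 to 1727 CPM in WT, without overlap. The 5 atrial markers summed to 4716 to 8104 CPM in G-line HOM and 78.4 to 2478 CPM in WT, also without overlap, and 1 of them passed the test. Most of that sum was Nppa, a natriuretic peptide gene that stressed ventricle also expresses, at 4667 to 7876 CPM in G-line HOM and 64.1 to 1194 CPM in WT. The atrial light chain Myl7 overlapped, at 1.37 to 45.7 CPM in G-line HOM and 0 to 524 CPM in WT. Of 8 endothelial markers 2 fell, and their summed levels overlapped, at 1044 to 1462 CPM in G-line HOM and 1279 to 1338 CPM in WT. No marker of these lists was without counts in either group. In ventricle pieces, fewer cells of a type and less RNA per cell cannot be told apart, and the part of these markers in the members' values was not tested.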

How the data were processed

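Total RNA of left ventricles was sequenced from libraries made with a total RNA kit, per the labels' protocols. The authors deposited raw read counts per gene symbol in 3 tables. Per the submitters' processing notes, bcl2fastq 2.20.0.422, Trimmomatic 0.39 and STAR 2.7.4a were used with build mm39 (GRCm39); counting program, annotation and strand setting: not given in the sources used here. Near-identical copies and antisense partners may therefore share reads. No coordinates of that build are printed; RefSeq promoter windows (GRCm38.p6) and transcript GC content (GENCODE M21) are sequence properties only.

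Genes were kept with at least 3 libraries at the CPM of 10 counts in the median library (0.422) and 15 counts in all, leaving 17588. One model with a mean per genotype was fitted to the 13 libraries with edgeR 4.0.16 (TMM, robust quasi-likelihood, 8 residual degrees of freedom, common biological variation 17.1%; R 4.3.3), with Benjamini-Hochberg adjustment over all genes and a threshold of 0.05. SE is the log2 fold change divided by the root of F. DESeq2 1.42.0, other scalings and filters, the treatment of the shared libraries and omission of libraries were alternatives; GC offsets and the joint omission of G-line HOM 3 and WT 1 were added after seeing the data. On simulated counts the G-line HOM against WT fit recovered 63.1% of genes changed by 1 and 83.7% of those changed by 2 on the log2 scale, with 11 false among 153 calls in 17153 genes.

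The members, gene lists and markers were chosen with earlier results of these data known. Members named were those called (up to 20 per comparison), the paralog pairs, stalk, 5S-binding and untested members, Rps6, Rpsa and Rps27a; lists give up to 3 called genes by smallest adjusted p. Eef1a2, Myc and Rack1 were named outside that rule after their values were seen. Some genes are not reported here. Binomial intervals cover counting error only.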

Additional observations from a re-analysis of the deposited data

How the results depend on the processing

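In the 28 alternative settings no result changed direction after having passed the test. In G-line HOM against WT, DESeq2, other size factors, both low-count filters, GC offsets and scaling without the members gave counts of higher members within 1.5 times of 16; library totals alone gave 37, while moving the median of all genes to 0.17 and their split to 3707 higher and 1582 lower. The shared libraries named A-line HOM gave 1, left out 4, and omission of G-line HOM 3 with WT 1 gave 5; leaving out 1 library gave 7 to 16 higher and 3 lower. Against G-line HET the higher count was 28 by library totals, 7 with no filter, 8 with only the 2 groups fitted, 3 with the shared libraries as A-line HOM, 7 with them left out, 4 without G-line HOM 3 and WT 1, and 1 to 17 without 1 library; the lower count was 1 with the shared libraries as A-line HOM or without atrial-positive libraries, and 1 to 3 without 1 library. In A-line HET against WT the higher count was 3 by library totals, 2 by DESeq2 and 0 with only the 2 groups fitted, under each other use of the shared libraries, without atrial-positive libraries, or without G-line HOM 3 and WT 1 (0 to 6 without 1 library). Its lower count was 1 with DESeq2-type size factors, only the 2 groups, or without mitochondrial and 5S ribosomal RNA. It was 0 with library totals, any other use of the shared libraries or no atrial-positive libraries. Without G-line HOM 3 and WT 1 it was also 0, and it was 0 to 3 without 1 library. G-line HET against WT gave 1 higher with only the 2 groups fitted (0 without 1 library). A-line HOM against WT gave 1 higher by DESeq2 or without atrial-positive libraries, 1 lower with only the 2 groups fitted, and 0 to 1 higher without 1 library. Same-numbered libraries did not pair: correlations of their deviations from the group means ran from -0.30 to 0.19. The replicate block gave 15 higher in G-line HOM against WT, 11 against G-line HET and 1 lower in A-line HET. Outside mitochondrial and 5S ribosomal RNA the mean member share was 1.53% in G-line HOM, 1.34% in G-line HET, 1.51% in A-line HOM, 1.49% in A-line HET and 1.39% in WT. The causes of these shifts were not tested. Depth limits Rpl28, Rpl39l, Rpl32l and Rpl6l, which had at most 23 counts in any library.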

Other observations

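Rps2 and Rpl3l, both of which fell in G-line HOM against WT, lie close together on chromosome 17, with Snhg9, Snora78, Snora64 and Ndufb10 between them in RefSeq order. Ndufb10, a subunit of respiratory complex I next to Rpl3l, also fell, by 0.60 ± 0.12 on the log2 scale (adjusted p = 0.00165, edgeR's quasi-likelihood test). Msrb1, on the other side of Rpl3l, had a log2 fold change of -0.16 ± 0.13 (adjusted p = 0.409), and Tbl3, before Rps2, had -0.13 ± 0.11 (adjusted p = 0.414). Hagh, 4 places beyond Rpl3l, rose by 0.77 ± 0.12 (adjusted p = 0.000263). Snhg9 and both snoRNA genes were not tested. These neighbours were looked up after the values of Rps2 and Rpl3l were seen.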
